A study of Homo sapiens with 15 samples.

Results

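DNA replication genes were followed in breast epithelial cells of the HMT3522 series. The set holds 39 genes that code for the machinery that licenses origins, unwinds and copies DNA, supplies deoxynucleotides and packs the new strands into chromatin. The genes were chosen by name. Where a gene had several probe sets annotated to it alone, the brightest on average was used. All 39 had such a probe set, among 12149 genes in all, and all 39 were among the 9111 genes tested after the dimmest 25% of genes were left out.

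Replication begins with licensing, when the origin recognition complex, CDC6 and CDT1 load the ring of MCM proteins onto DNA, and geminin (GMNN) blocks CDT1 afterwards so that no origin is licensed again in the same cycle. The kinases CDC7 and CDK2, which acts with cyclin E, then turn the ring into an active helicase by adding CDC45 and the GINS complex. Many of these genes are transcribed together at the passage into S phase by E2F factors, so their levels are widely read as a sign of proliferation. In laminin-rich gels nonmalignant mammary cells form small polarised spheres that stop dividing, whereas malignant ones go on growing, which is the background against which these genes are read here.

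The samples fall into 3 groups, all grown in 3D laminin-rich extracellular matrix (lrECM). T4R stands for 9 samples of the malignant HMT3522 T4 line, each treated with another agent that the submitters call reverting. The agents were GM6001 (an MMP inhibitor), an inhibitor labelled MMPs and ADAMs, TNF protease inhibitor–2, PD98059 (a MAPK inhibitor), LY294002 (a PI3K inhibitor), dominant-negative Rap1, Tyrphostin AG 1478 and mAb225 (against EGFR), and AIIB2 (against β1-integrin). T4 stands for 3 samples of the malignant line and S1 for 3 samples of HMT3522 S1, labelled normal. Each agent has 1 sample. The labels give neither dose nor time, and the design text mentions a vehicle control without naming the samples that received it. S1 and T4 are 1 cell line each. Whether the samples of a line were separate cultures is not stated, so the p-values cover sample-to-sample spread alone, which within a line may be technical. In the fit of all samples this spread was pooled over the 3 groups. Differences between the 9 agents, with 1 sample each, therefore enter the p-values of every comparison.

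The values came as 2 tables, 1 for each array type. The first held T4R with GM6001, MMPs and ADAMs and LY294002, all 3 T4 samples and S1 samples 1 and 2. The second held the other 6 agents and S1 sample 3. S1 sample 3 differed at least 2-fold from S1 samples 1 and 2 in 553 and 648 of the 9111 genes, whereas samples 1 and 2 differed from each other in 16. T4 sample 3, on the same array type as the other T4 samples, differed from them in 356 and 426 genes, against 6 between T4 samples 1 and 2. S1 sample 3 is shown apart, and results are given with and without it. The basal keratin genes KRT5 and KRT14 lay between 13.12 and 14.52 on the log2 scale in all 15 samples. Of the luminal keratin genes, KRT18 lay between 10.41 and 11.81 and KRT8 between 8.43 and 10.15. KRT19, also luminal, was below the lower quartile of all genes in each of the 15 samples. The mean of 12 measured markers of leukocytes, endothelium, fibroblasts and smooth muscle lay between 7.07 and 7.29 in T4R, between 7.17 and 7.21 in T4 and between 6.89 and 7.05 in S1. Of the 12, 5 were bright enough to be tested and 7 were not, among them the defining leukocyte gene PTPRC and the endothelial genes PECAM1 and CDH5. Of the 5, CD14 and ACTA2 were higher in T4 than in S1, ACTA2 was lower in T4R than in T4, and 3, with CD14 and COL1A1 among them, were higher in T4R than in S1. The part of these markers in the results was not tested.

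Promoter windows are shown for 5 members whose levels the results turn on, to set the sequence beside the measured levels. RefSeq's table (GRCh38.p14) listed windows for 34 of the 39 members, and the 250 bases upstream of the start site were searched on both strands. The letters searched were TTTCGCGC, TTTGGCGC and TTTCCCGC (E2F type), TTTGAA (the CHR type of mitotic promoters) and CCAAT. Matches to any of them are in capitals, and matches of different letters may overlap, as in MCM6.
MCM6: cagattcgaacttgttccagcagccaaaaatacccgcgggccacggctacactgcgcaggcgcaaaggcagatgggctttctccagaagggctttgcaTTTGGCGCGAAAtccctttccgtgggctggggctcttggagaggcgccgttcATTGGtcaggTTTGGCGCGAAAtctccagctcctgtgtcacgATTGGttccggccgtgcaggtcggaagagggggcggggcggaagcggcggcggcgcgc
PCNA: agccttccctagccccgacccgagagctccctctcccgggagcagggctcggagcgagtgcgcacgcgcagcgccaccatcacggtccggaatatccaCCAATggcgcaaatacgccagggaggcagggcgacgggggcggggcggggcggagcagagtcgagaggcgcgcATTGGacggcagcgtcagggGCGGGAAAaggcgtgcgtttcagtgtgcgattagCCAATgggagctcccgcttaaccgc
TYMS: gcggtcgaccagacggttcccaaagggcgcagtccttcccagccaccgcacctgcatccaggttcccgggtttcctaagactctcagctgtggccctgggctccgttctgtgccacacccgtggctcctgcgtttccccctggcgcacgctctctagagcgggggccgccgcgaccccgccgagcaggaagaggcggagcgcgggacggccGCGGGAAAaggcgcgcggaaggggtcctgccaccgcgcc
RRM2: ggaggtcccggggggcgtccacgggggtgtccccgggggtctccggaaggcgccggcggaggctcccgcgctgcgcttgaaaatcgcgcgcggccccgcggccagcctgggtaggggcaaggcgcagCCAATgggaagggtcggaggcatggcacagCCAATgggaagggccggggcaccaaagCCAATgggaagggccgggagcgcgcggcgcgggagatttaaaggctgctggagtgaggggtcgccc
RFC1: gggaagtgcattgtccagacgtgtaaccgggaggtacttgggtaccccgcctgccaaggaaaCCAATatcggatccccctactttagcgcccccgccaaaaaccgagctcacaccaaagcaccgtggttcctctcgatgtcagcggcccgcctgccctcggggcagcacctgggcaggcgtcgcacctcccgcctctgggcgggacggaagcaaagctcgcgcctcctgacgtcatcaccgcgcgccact

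These windows lie at chr2:135876444-135876693 on the minus strand (MCM6), chr20:5126623-5126872 on the minus strand (PCNA), chr18:657403-657652 on the plus strand (TYMS), chr2:10122489-10122738 on the plus strand (RRM2) and chr4:39366363-39366612 on the minus strand (RFC1). E2F-type letters were found in 12 of the 34 member windows (35.3%), against 3.93% of 7501 windows of tested genes and 2.38% of all 27305 windows. The 12 were CDT1, MCM3, MCM6, MCM7, GINS2, POLA1, POLA2, POLE, PCNA, RFC3, LIG1 and TYMS. CCAAT was found in 18 member windows (52.9%), against 36.2% of tested genes' windows and 33% of all, and RRM2 held it 3 times. The CHR-type letters were found in 1 member window, that of RRM1 (2.94%), against 8.39% of tested genes' windows and 13.6% of all. A match describes letters in this window and is no evidence of binding.

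Levels are log2 expression, and the level of 1 gene is not compared with that of another. Averaged over the 39 genes, the level was highest in T4 sample 3 (9.25) and S1 sample 3 (9.22) and lowest in T4R with dominant-negative Rap1 (7.90). The other 8 agents lay between 8.40 (mAb225) and 8.84 (TNF protease inhibitor–2), T4 samples 1 and 2 at 8.51 and 8.46, and S1 samples 1 and 2 at 8.01 and 8.02. T4 samples 1 and 2 thus lay within the range of the agents and above S1 samples 1 and 2, and sample 3 of each line lay above every agent.

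**Figure D1:**
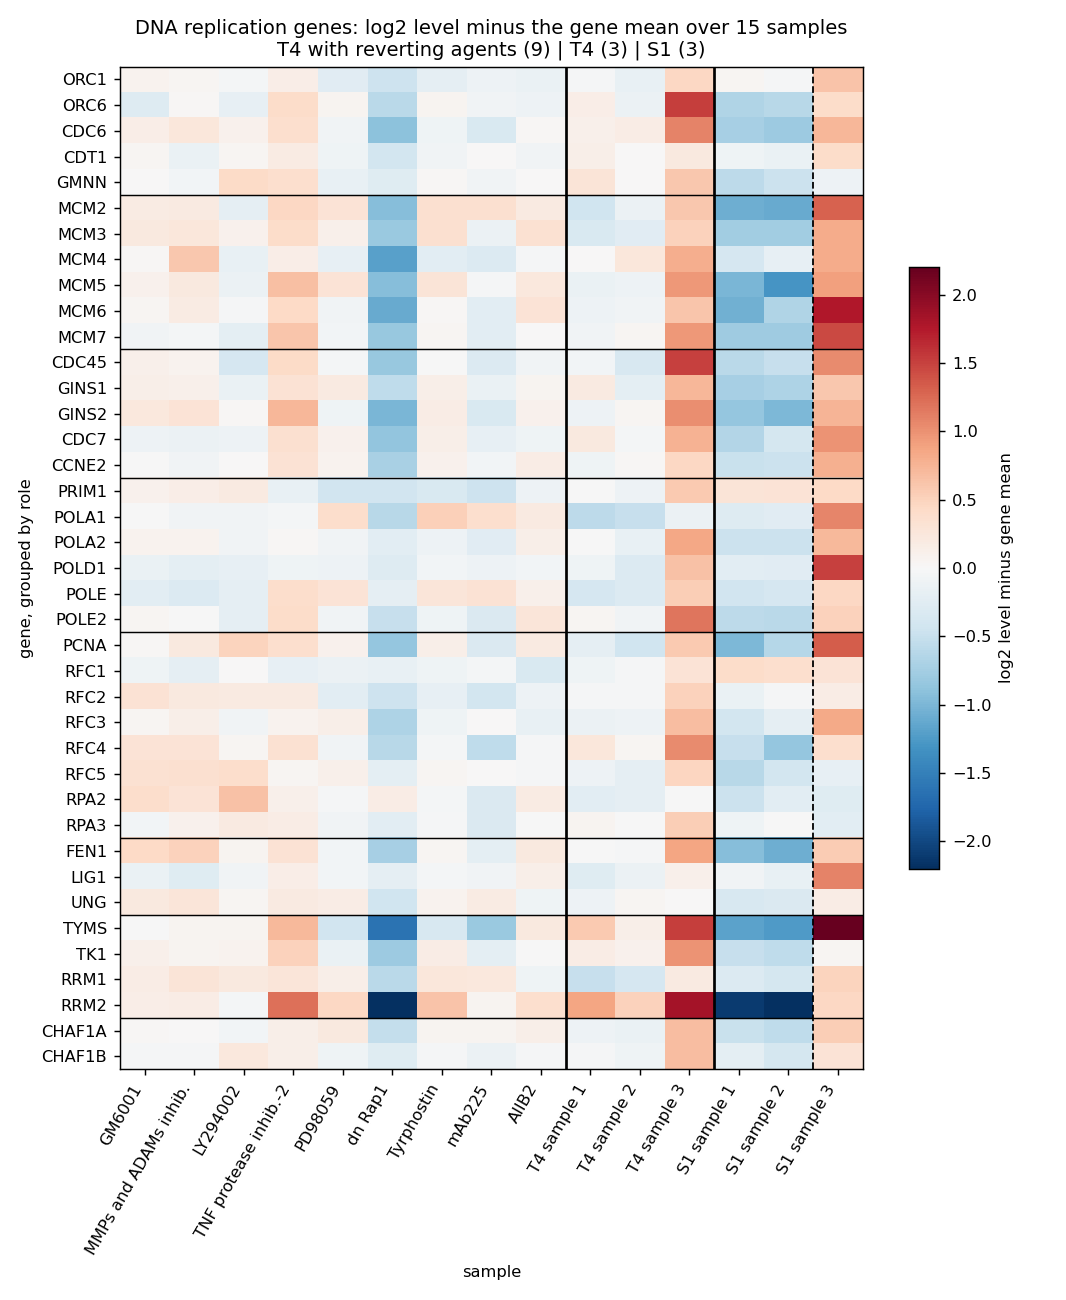
Heat map of the 39 genes, grouped by role (rows), in 9 T4R samples, 3 T4 samples and 3 S1 samples (columns); colour gives the log2 level minus that gene's mean over the 15 samples. The columns of T4 sample 3 and S1 sample 3 are mostly red, and those of dominant-negative Rap1 and S1 samples 1 and 2 are mostly blue.

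**Figure D2:**
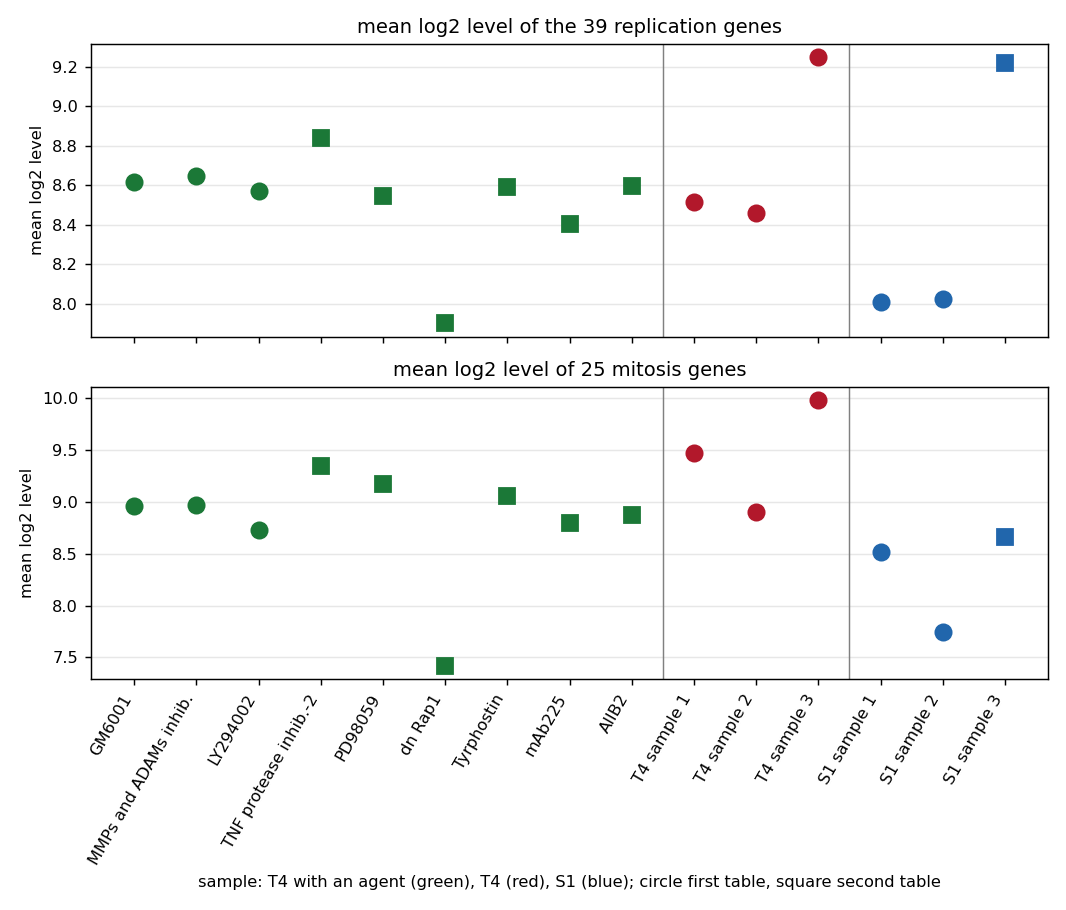
Mean log2 level per sample of the 39 replication genes (top) and of 25 mitosis genes (bottom), with T4R in green, T4 in red and S1 in blue, circles for the first table and squares for the second. S1 sample 3 lies at 9.22 in the upper panel, near T4 sample 3, and at 8.66 in the lower panel, below all 3 T4 samples.

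T4 was compared with S1 to ask what separates the malignant from the nonmalignant line. With all samples, RRM2 and GMNN were higher in T4 and RFC1 was lower, and the other 36 replication genes did not pass (limma, adjusted p under 0.05 over 9111 genes, array table as a block). The background was 14.6% of all tested genes called higher and 12.3% called lower, and 2 higher and 1 lower of 39 is not above it. Of the 39 genes, 32 had a difference above 0, and the median difference was 0.31 against 0.01 over all tested genes. In bulk RNA, fewer replicating cells and less of each RNA per cell cannot be told apart. The count depended on S1 sample 3. Without it 16 of the 39 genes were higher (15.7% of all tested genes) and 0 lower (13.9%), with 24 at an unadjusted p under 0.05 by limma, and the median difference was 0.70. In the first table alone, which also lacks S1 sample 3, 17 were higher (16.1%) and 0 lower (14.7%), with 25 at an unadjusted p under 0.05 by limma. Both fits gave the same differences, with a median of 0.70, and are not separate checks. Both also take part of their spread from the agent samples. With S1 samples 1 and 2 and the 3 T4 samples only, the median was again 0.70, but 4 were higher and 0 lower. There 18 were at an unadjusted p under 0.05 by limma, and 20.9% of all tested genes were called in either direction. The other S1 and T4 samples also mattered. Without S1 sample 1 no gene of the set passed limma's test, with 3 at an unadjusted p under 0.05, where 10.4% of all tested genes were called higher and 8.98% lower. Without S1 sample 2 the counts in the set were the same, where 10.2% of all were higher and 8.33% lower. Without T4 sample 1 the set had 1 higher (12.3% of all) and 0 lower (10.5%), with 6 at an unadjusted p under 0.05 by limma. Without T4 sample 3 it had 0 higher (12.8%) and 2 lower (10.1%), RFC1 and PRIM1, with 4 at an unadjusted p under 0.05 by limma. Sample 3 deviated in the same way in the 2 lines, whereas samples 1 and 2 were not matched by number. With the replicate number as a paired block 6 were higher (16.4%) and 2 lower (13.5%).

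**Figure D3:**
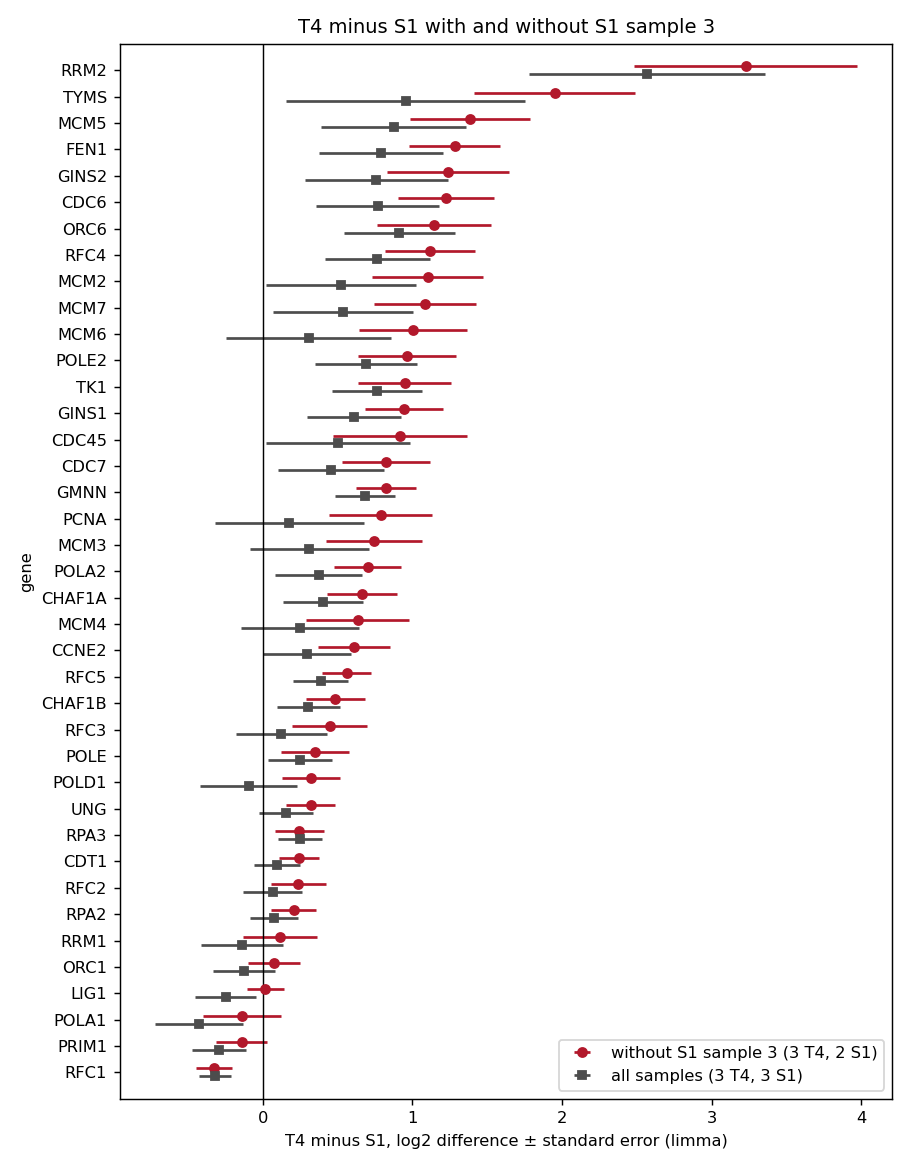
T4 minus S1 for each of the 39 genes as log2 difference ± standard error from limma, without S1 sample 3 (red circles, 3 T4 and 2 S1 samples) and with all samples (grey squares, 3 T4 and 3 S1 samples). The difference is larger without S1 sample 3 for most genes, for example 1.95 against 0.95 for TYMS, whereas that of RFC1 is -0.33 and -0.32.

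Over the deposited levels, all 3 T4 samples lay above S1 samples 1 and 2 for 29 of the 39 genes, and 29.8% of all tested genes did the same. For RFC1 alone all 3 T4 samples lay below them (27.9%). The 29 held all 6 MCM genes, all 5 genes of origin firing, both chromatin assembly genes and 3 of the 4 genes of nucleotide supply. S1 sample 3 lay above all T4 samples for 17 of the 39 genes, and the share of all tested genes that did so was not counted.

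The largest difference was that of RRM2, the small subunit of ribonucleotide reductase, which makes deoxynucleotides. Its level was 10.30, 9.93 and 11.25 in T4, against 9.88 in S1 sample 3 and 7.33 and 7.21 in S1 samples 1 and 2. All T4 samples lay above all S1 samples, and S1 sample 3 lay close to the lowest T4 sample. The difference was 2.57 ± 0.79 (limma adjusted p = 0.0269), and 3.23 ± 0.75 without S1 sample 3 (limma adjusted p = 0.00635). It missed the threshold without S1 sample 1 (limma adjusted p = 0.114), S1 sample 2 (0.124), T4 sample 1 (0.0515) or T4 sample 3 (0.0909), and without the table block after quantile normalization across tables (0.0501). A second probe set of RRM2 gave 2.56 (limma adjusted p = 0.0383 over all probe sets).

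TYMS, thymidylate synthase, gave the widest split within S1. Its level was 9.48, 9.02 and 10.43 in T4, against 11.25 in S1 sample 3 and 7.73 and 7.65 in S1 samples 1 and 2. S1 sample 3 was the highest of all samples and samples 1 and 2 were below every T4 sample. The difference between T4 and S1 was 0.95 ± 0.80 with all samples (limma adjusted p = 0.421) and 1.95 ± 0.54 without S1 sample 3 (limma adjusted p = 0.016). Further, dimmer probe sets of TYMS gave -0.09 and -0.04 with all samples. The other nucleotide genes were TK1, which salvages thymidine and was higher without S1 sample 3 (0.95 ± 0.31, limma adjusted p = 0.0371), and RRM1, the large subunit of ribonucleotide reductase, whose difference was -0.14 with all samples and 0.11 without that sample.

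Among licensing genes, GMNN stood apart from CDC6 and ORC6. GMNN had 9.78, 9.52 and 10.10 in T4, against 9.39 in S1 sample 3 and 8.93 and 9.03 in S1 samples 1 and 2, with no overlap between the lines. The difference was 0.68 ± 0.20 (limma adjusted p = 0.0218), and it missed the threshold without S1 sample 1 (0.105), S1 sample 2 (0.0852) or T4 sample 3 (0.0862). CDC6, which helps to load the MCM ring, had 8.05, 8.09 and 9.02 in T4, against 8.66 in S1 sample 3 and 7.20 and 7.13 in the other S1 samples. S1 sample 3 fell among the T4 samples. CDC6 had 0.77 ± 0.41 with all samples (limma adjusted p = 0.189) and 1.22 ± 0.32 without S1 sample 3 (limma adjusted p = 0.0129). ORC6, a subunit of the origin recognition complex, had 0.91 ± 0.37 with all samples (limma adjusted p = 0.0843) and 1.14 ± 0.38 without S1 sample 3 (limma adjusted p = 0.0383). ORC1, its largest subunit, had -0.13 and 0.08, and CDT1 0.09 and 0.24.

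The MCM genes code for the ring that becomes the helicase. Their mean was 8.90, 9.04 and 9.82 in T4, against 10.26 in S1 sample 3 and 8.24 and 8.28 in S1 samples 1 and 2. S1 sample 3 was above all other samples and S1 samples 1 and 2 below all T4 samples. None of the 6 passed with all samples, the largest difference being that of MCM5 at 0.87 ± 0.48 (limma adjusted p = 0.206). Without S1 sample 3, MCM5 (1.38 ± 0.40, limma adjusted p = 0.0212), MCM2 (1.10 ± 0.37, 0.0407) and MCM7 (1.09 ± 0.34, 0.031) passed, while MCM6 was at 1.00 ± 0.36 (0.0525), just outside the threshold. MCM4 had 2 further probe sets, of which 1 gave -0.01 and the other 0.23 between T4 and S1.

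Among origin firing genes, GINS1 (0.94 ± 0.26, limma adjusted p = 0.0162) and GINS2 (1.24 ± 0.41, 0.037), both of the GINS complex that joins MCM and CDC45, were higher in T4 without S1 sample 3. CDC45 (0.92), the kinase gene CDC7 (0.82) and the cyclin gene CCNE2 (0.61) did not pass there. Of the polymerase genes, POLA2, an accessory subunit of polymerase alpha (0.70 ± 0.22, limma adjusted p = 0.0326), and POLE2, of polymerase epsilon (0.96 ± 0.33, 0.042), passed. The primase gene PRIM1 gave -0.30 ± 0.18 with all samples and -0.14 without S1 sample 3, and POLA1, the catalytic subunit of polymerase alpha, -0.43 and -0.14. POLD1 and POLE, the catalytic subunits of the main replicative polymerases, did not pass in either fit.

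The clamp and its loader included the gene lower in T4. PCNA, the sliding clamp, had 10.01, 9.75 and 10.77 in T4, against 11.53 in S1 sample 3 and 9.20 and 9.58 in S1 samples 1 and 2, and its difference was 0.18 ± 0.50 (limma adjusted p = 0.834). RFC1, the large subunit of the clamp loader, had 8.63, 8.69 and 9.02 in T4, against 9.02 in S1 sample 3 and 9.13 and 9.09 in S1 samples 1 and 2. It was the only gene of the set called lower in T4, with -0.32 ± 0.11 (limma adjusted p = 0.0387). This call was lost in 16 of 32 alternative fits, without S1 sample 3 among them (limma adjusted p = 0.0545), and the other 2 probe sets of RFC1 did not pass (-0.05 and -0.25). RFC4 (1.12 ± 0.30, limma adjusted p = 0.0137) and RFC5 (0.56 ± 0.16, 0.0227), small subunits of the loader, were higher without S1 sample 3, unlike RFC2 and RFC3. FEN1, the endonuclease that trims Okazaki fragments, was higher as well (1.28 ± 0.30, limma adjusted p = 0.00699). LIG1, which seals them, had -0.25 with all samples and 0.02 without S1 sample 3. UNG, which removes uracil from DNA, had 0.15 and 0.32, and the chromatin assembly genes CHAF1A and CHAF1B had 0.40 and 0.30 with all samples, and 0.66 and 0.49 without it, without passing.

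S1 sample 3 was at least 2-fold above the mean of S1 samples 1 and 2 for 25 of the 39 genes, against 2.95% of all tested genes. The median over the 39 genes was 1.14, against 0.00 over all tested genes. The ratio was 11.8 for TYMS, 6.15 for MCM6, 6.10 for RRM2 and 5.22 for MCM2. Further, dimmer probe sets of TYMS showed little of this. They had 7.31 in S1 sample 3 against 7.09 and 7.21 in S1 samples 1 and 2, and 7.17 against 6.89 and 6.79. That of RRM2 had 10.02 against 7.79 and 7.17. Within the second table, S1 sample 3 was above all 6 agents for 30 of the 39 genes, and 25.5% of all tested genes did so. T4 sample 3 was at least 2-fold above the mean of T4 samples 1 and 2 for 7 genes (1.44% of all), namely CDC45, GINS2, MCM5, ORC6, POLE2, RRM2 and TYMS, with a median of 0.79 over the 39. S1 sample 3 sits on another array type than S1 samples 1 and 2, and array type and sample cannot be told apart for it. T4 sample 3 shares its array type with the other T4 samples. The mean of the 25 mitosis genes was 8.66 in S1 sample 3, against 8.52 and 7.74 in S1 samples 1 and 2, while in T4 sample 3 it was 9.98, against 9.47 and 8.91 in T4 samples 1 and 2.

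**Figure D4:**
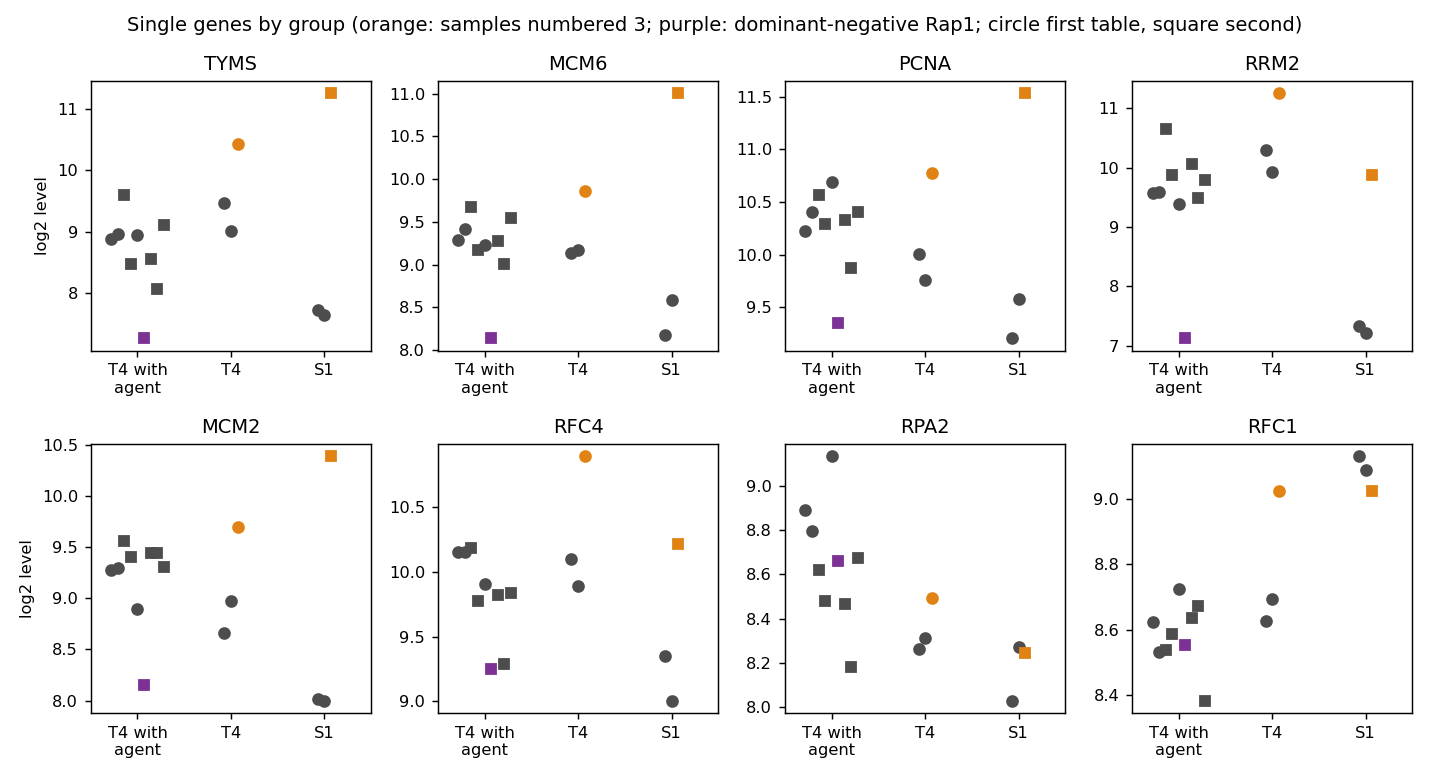
Log2 level of 8 genes in each sample of T4 with an agent (left), T4 (middle) and S1 (right), with circles for the first table, squares for the second, orange for T4 sample 3 and S1 sample 3, and purple for dominant-negative Rap1. The genes were chosen after their values were seen; S1 sample 3 lies above every other sample for TYMS, MCM6, PCNA and MCM2, and RPA2 and RFC1 lack this pattern.

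T4R was compared with T4 to ask what the agents changed. RPA2 was higher in T4R, and no other replication gene passed: 1 of 39 was higher (6.46% of all tested genes) and 0 lower (8.44%), with 2 at an unadjusted p under 0.05 by limma. The median difference was -0.33 against about 0 over all genes. T4 has no sample in the second table, so this value depends on the table block. The fitted second minus first table difference had a median of 0.22 over the 39 genes and 0.01 over all tested genes. The median difference between T4R and T4 was 0.11 when T4 sample 3 and S1 sample 3 were left out, and -0.11 without T4 sample 3 alone. Leaving out S1 sample 3 also takes the second table's agents out of this comparison. The sign thus depended on the samples and agents used, and their parts cannot be told apart. No cause was tested. Leaving out S1 sample 3 alone gave 1 higher (6.41%) and 0 lower (8.48%), and the first table alone also gave 1 higher (6.93%) and 0 lower (8.39%). The differences were the same in both fits, with a median of -0.15 over the 39 genes. Without S1 sample 3 the table block sets the second table's agents apart. Both fits therefore draw on the 3 agents of the first table and are not separate checks. RPA2 codes for the middle subunit of the protein that coats single-stranded DNA. It had a lowest value of 8.18, a median of 8.66 and a highest of 9.14 in T4R, 8.26, 8.31 and 8.49 in T4, and 8.24 in S1 sample 3 and 8.02 and 8.27 in S1 samples 1 and 2. The lowest T4R sample, with mAb225, fell below every T4 sample, and the 3 agents of the first table lay above all of them. The difference between T4R and T4 was 0.50 ± 0.15 (limma adjusted p = 0.0365), and the call was lost in 9 of 29 alternative fits. These included fits without S1 sample 2 (0.0523), T4 sample 1 (0.114), T4 sample 2 (0.0876), GM6001 (0.0838), MMPs and ADAMs (0.0645) or LY294002 (0.105), and fits without the table block (0.19).

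Within the first table, the 3 agents there were all above all 3 T4 samples for 2 genes, POLA1 and RPA2 (16.8% of all tested genes), and all below for 3, CDC7, RRM2 and TYMS (18.6%). RRM2 was 9.57 with GM6001, 9.59 with MMPs and ADAMs and 9.39 with LY294002, against 10.30, 9.93 and 11.25 in T4, so the groups did not overlap. Its fitted difference was -0.98 ± 0.30 in the first table, which did not pass (limma adjusted p = 0.0665), and -1.42 ± 0.73 over all samples (limma adjusted p = 0.226). The members lay inside the T4 range in 28 of 39 cases for GM6001, 28 for MMPs and ADAMs and 26 for LY294002. The matching shares of all tested genes were not counted.

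T4R was compared with S1 to ask what still differs from the nonmalignant line. RFC5 and RPA2 were higher in T4R and RFC1 was lower, which is 2 higher (11.8% of all tested genes) and 1 lower (11.4%) of 39, and the median difference was 0.06 against 0.00. RFC5 differed by 0.57 ± 0.15 (limma adjusted p = 0.0155), a call lost without S1 sample 1 (0.0829) or S1 sample 2 (0.0565). Its other probe set gave 0.35, and with that probe set in its place the call was lost as well (limma adjusted p = 0.119). RPA2 differed by 0.58 ± 0.13 (limma adjusted p = 0.00642), a call lost without the table block after quantile normalization across tables (0.44, limma adjusted p = 0.0604). RFC1 had a lowest value of 8.38, a median of 8.59 and a highest of 8.72 in T4R, below all S1 samples, and a difference of -0.47 ± 0.09 (limma adjusted p = 0.00184), which passed in all 29 alternative fits. Without S1 sample 3, 6 genes were higher (8.77%) and 1 lower (9.41%), and in the first table alone 13 were higher (9.55%) and 1 lower (10.4%). Both fits gave the same differences, with a median of 0.51, and draw only on the agents of the first table. In that table the 3 agents lay above S1 samples 1 and 2 for 33 of 39 genes (29.2% of all tested genes). The comparisons of T4 with S1, T4R with T4 and T4R with S1 share samples, and their values are given side by side and not as independent evidence.

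Dominant-negative Rap1, a form of the small GTPase Rap1 that interferes with the normal protein, had the lowest mean level of the 39 genes among the 9 agents. It was the lowest of the 9 for 32 genes, a count that was not made over all tested genes. It was below the other 5 agents of its table for 34 of 39 genes, against 27.3% of all tested genes. It was at least 2-fold below their median for 8, against 1.75% of all: GINS2, MCM2, MCM3, MCM4, MCM5, MCM6, RRM2 and TYMS. Among further probe sets of these genes, that of RRM2 was also at least 2-fold lower, whereas those of MCM4, MCM5 and TYMS were not. The median over the 39 genes was -0.69. RRM2 was 7.12 with dominant-negative Rap1, against 9.48 to 10.65 with the other 5 agents and 9.88 in S1 sample 3, which is 6.78-fold lower than the median of those 5. TYMS was 7.27, against 8.08 to 9.61 with those agents, and MCM6 was 8.14, against 9.01 to 9.68. RRM2 with dominant-negative Rap1 lay near S1 samples 1 and 2, which are on the other array type. The mean of the mitosis genes was 7.42 with dominant-negative Rap1, against 8.73 to 9.35 with the other 8 agents. RPA2 was 0.18 higher than the median of those 5 agents, and RFC1 and PRIM1 differed from it by -0.03 and -0.09. This is 1 sample with no replicate check, and the other agents have 1 sample each too.

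**Figure D5:**
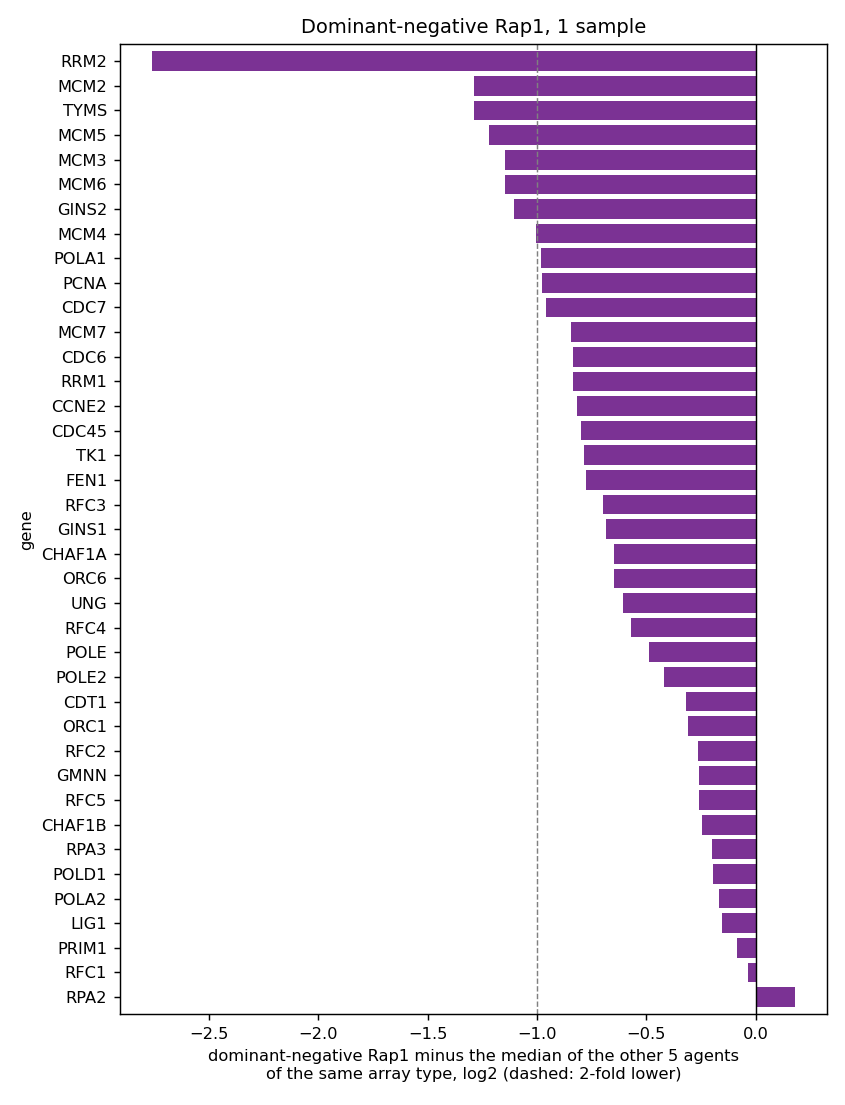
Dominant-negative Rap1 minus the median of the other 5 agents of the same array type, in log2 units, for each of the 39 genes (bars, 1 sample); the dashed line marks a 2-fold lower level. Of the 39 genes 38 lie below 0, RRM2 lies at -2.76, and RPA2 lies above 0.

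The genes varied together from sample to sample. Each gene's correlation with the mean of the other 38 had a median of 0.91 over the 8 samples of the first table and 0.92 over the 7 of the second, and 29 genes exceeded 0.8 in each. These are descriptions across few samples that share array type and line. RFC1 was least alike in the first table (-0.32), with POLA1 (0.29), PRIM1 (0.30), LIG1 (0.42) and RPA2 (0.43) next. In the second table RPA2 was least alike (-0.39), with RFC5 (0.15), RPA3 (0.27) and GMNN (0.45) next.

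Related gene lists give the setting. Their counts stand against these shares of all tested genes. For T4 against S1, 14.6% were higher and 12.3% lower with all samples. The shares were 15.7% and 13.9% without S1 sample 3, and 16.1% and 14.7% in the first table alone. For T4R against T4 with all samples, 6.46% were higher and 8.44% lower. Of 28 other replication genes, 2 were higher in T4 than in S1 (POLE3 at 0.58 and GINS3 at 0.79) and 1 was lower (RPA1 at -0.78, limma adjusted p = 0.00042), the partner of RPA2 and RPA3. Without S1 sample 3, 7 were higher and 1 lower, and in the first table alone 8 were higher and 1 lower. In T4R against T4, 3 of the 28 were higher, RPA1 (0.47), ASF1A (0.54) and ORC3 (0.31), and 0 lower. Without S1 sample 3 RPA1 passed (0.54, limma adjusted p = 0.00238), whereas ASF1A (0.0654) and ORC3 (0.0505) did not. Of 25 mitosis genes, 10 were higher in T4 than in S1 and 0 lower, with CENPA (1.80), PLK1 (1.26) and CDC20 (2.07) having the smallest p. Without S1 sample 3, 11 were higher, and in the first table alone 20 were, with 0 lower in both. MKI67, the proliferation marker, was 1.73 ± 0.48 higher in T4 than in S1 (limma adjusted p = 0.0168), and it fell by 1.60 ± 0.45 in T4R against T4 (limma adjusted p = 0.0284), a call lost without S1 sample 3 (limma adjusted p = 0.051). TOP2A, which untangles DNA, was 1.41 ± 0.69 higher in T4 than in S1 without passing (limma adjusted p = 0.147). Of 14 nucleotide genes, DCK (0.61) and DTYMK (0.79) were higher and SHMT2 (-0.39) lower in T4 than in S1, and SHMT1 (0.69) was higher in T4R than in T4. Without S1 sample 3, 4 of the 14 were higher in T4 than in S1 and 0 lower, SHMT2 having missed the threshold (-0.37, limma adjusted p = 0.0627), and in the first table alone 6 were higher and 0 lower. Of 23 genes of S phase entry and its control, 8 were higher and 2 lower in T4 than in S1. CKS1B (0.99), TFDP1 (1.18) and CDKN3 (2.17) led the higher ones, and RB1 (-0.59) and the inhibitor gene CDKN1B (-0.80 ± 0.20, limma adjusted p = 0.0104) were lower. In T4R against T4, CDKN1B was 1.15 ± 0.19 higher (limma adjusted p = 0.0015) and RBL2 0.51 higher. CDKN1A was -1.75 ± 0.61 there (limma adjusted p = 0.0729) and E2F1 -0.07, and CDKN1C was 0.18, all without passing. AIIB2 stood apart for CDKN1A, at 10.27 against 7.15 to 7.63 with the other agents and 9.86, 9.64 and 8.62 in T4. For CDKN1C it was at 10.73, against 7.46 to 8.92 with the other agents and 8.54, 8.31 and 7.33 in T4.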

How the data were processed

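RNA of 15 samples was isolated with Trizol and hybridised to Affymetrix arrays, as the labels state. Judging from their range, the values the authors deposited are log2 expression, and how the authors summarised, background-corrected and normalized them, and whether both tables were treated together, is not given in the sources used here. Of 22215 probe sets in both tables, 19707 named 1 gene, 614 several and 1706 none, and 188 were named differently by the 2 platform annotations; symbols were updated through RefSeq. Differences were tested with limma 3.58.1 in R 4.3.3 (lmFit and eBayes, 2-sided, Benjamini-Hochberg over 9111 genes) in 1 fit of all samples with the table as a fixed block, and the fit was tested on simulated data. All T4 samples are in the first table, so T4 meets the second table's agents through the other groups. In any fit with the table as a fixed block that lacks S1 sample 3, the T4R differences come from the first table's agents alone. Same-numbered T4 and S1 samples deviated together (r of 0.28, 0.31 and 0.39). T4 sample 1 correlated as well with S1 sample 2 (0.29), and T4 sample 2 as well with S1 sample 1 (0.31). This makes the pairing of the blocked fit uncertain. All 39 genes are named; of the other lists, up to 3 with the smallest p in each direction past the threshold are named, and 6 cell cycle genes in any case. The members and lists were chosen with earlier results of these data known. Alternatives varied the probe set, filter, normalization, block, weights and samples.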

Additional observations from a re-analysis of the deposited data

Results flagged for a closer look

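Among the 9 T4R samples, that with dominant-negative Rap1 was the lowest and lay far from the next one for 11 of the 39 genes and for the mean of all 39. Its gap to the next sample, divided by the range of the 9, exceeded Dixon's critical value of 0.493. The log2 levels with dominant-negative Rap1 were 8.16 for MCM2, 8.36 for MCM3, 8.29 for MCM4, 7.73 for MCM5 and 8.14 for MCM6, all of the helicase ring. They were 7.23 for CDC7 and 6.80 for CCNE2, which act in origin firing, and 8.18 for RFC3 of the clamp loader. They were 9.69 for RRM1 and 7.12 for RRM2, the subunits of ribonucleotide reductase, and 7.86 for CHAF1A of chromatin assembly. The mean over the 39 genes was 7.90. Further probe sets placed dominant-negative Rap1 at 9.28 for RRM1, above 8.23 with mAb225, and at 7.49 for RFC3, above 7.37 with Tyrphostin AG 1478. A further probe set of MCM4 placed it at 7.54, above 7.46 with mAb225. The remaining one of MCM4 and those of MCM5, CCNE2, RRM2 and CHAF1A had it lowest of the agents. Chance flags about 1 in 20 groups of samples drawn from 1 population. These 9 samples had different agents and lay on different array types, so that rate need not hold here. The matching count over all tested genes was not made, so the 11 genes cannot be set against a background. Genes of 1 sample are also not independent of each other. S1 and T4 have 3 samples each and were not examined in this way.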

How the results depend on the processing

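Counts of the 39 genes that passed limma's test depended on the samples and weights used. The share of all 9111 tested genes called in either direction is in parentheses. For T4 against S1 the count was 3 (26.9%), and it was 17 (30.8%) in the first table alone, 23 (45.9%) with array weights and 23 (34%) when dominant-negative Rap1 and sample 3 of both lines were left out, together 3 samples. With the replicate number as a block it was 8 with the table (29.9%) and 7 without it (27.1%). Leaving out 1 sample gave 0 to 16. For T4R against T4 the count was 1 (14.9%). It was 0 without the table block (16.7%, with 1 gene of the set at an unadjusted p under 0.05 by limma), 0 without it after quantile normalization across tables (16.9%, 0 genes) and 0 with the table as a random block (14.7%, 2 genes). It was 5 with array weights (34.7%) and 5 without those 3 samples (19.6%), and 0 to 1 when 1 sample was left out. For T4R against S1 the count was 3 (23.2%), and it was 14 in the first table alone (20%), 25 with array weights (42.3%), 27 without those 3 samples (30.4%) and 3 to 7 when 1 sample was left out. Array weights raised the share called among all genes as well. The other planned settings, which varied the probe set, the filter and the normalization within tables, stayed within 1.5 times these counts. Of 3 alternatives chosen after seeing the data, leaving out S1 sample 3 and T4 sample 3 gave 10 for T4 against S1 (26.3%), 2 for T4R against T4 (13.2%) and 18 for T4R against S1 (22.9%). The first table alone without T4 sample 3 gave 25 (38.9%), 8 (23.8%) and 30 (35.1%) in the same order. The fit of S1 samples 1 and 2 and T4 only gave 4 for T4 against S1 (20.9%). It is the same as that of the groups compared alone, so these settings are not independent. Some genes changed sign where either fit passed. In T4R against T4, MCM3 was 0.48 without those 3 samples, and MCM3 was 0.48, PCNA 0.56 and RFC2 0.26 in the first table without T4 sample 3. In T4R against S1, the first table alone gave 0.93 for MCM6 and 1.25 for TYMS. Array weights gave 0.37 for CCNE2, 0.80 for MCM6, 0.56 for MCM7, 0.44 for POLA2 and 0.97 for TYMS. Without those 3 samples CCNE2 was 0.46, MCM6 0.93, MCM7 0.67, POLA2 0.50, RFC3 0.33 and TYMS 1.25. POLA2 was 0.50 without S1 sample 3 and T4 sample 3. The first table without T4 sample 3 gave 0.46 for CCNE2, 0.49 for CDC45, 0.40 for CDC7, 0.93 for MCM6, 0.67 for MCM7, 0.50 for POLA2, 0.33 for RFC3 and 1.25 for TYMS. A further 256 of 3489 recomputed values changed sign while passing in neither fit. The cause of these changes was not tested. The number of arrays limits the precision, and signal over background is not known for these values.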
